A study of Mus musculus with 6 samples.

Results

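The proteasome and the core of the SCF ubiquitin ligase were followed through polyA RNA-Seq libraries of mouse embryonic stem cells (mESCs). The genes were chosen by symbol alone. They were all genes named Psma to Psmg with a number, to which the 3 SCF genes Cul1, Skp1a and Rbx1 were added, and this gave 52 of the 39017 genes in the count tables. Psmc3ip met the spelling rule too, although it encodes a recombination factor that binds a proteasome ATPase and is no part of the proteasome, so it is described apart from the others.

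The proteasome degrades proteins that carry ubiquitin chains. Its core particle, the 20S proteasome, is a barrel of stacked rings, in which alpha subunits (Psma genes) form the outer rings and the gate, and beta subunits (Psmb genes) form the inner rings and hold the proteolytic sites. The 19S cap binds ubiquitinated proteins and feeds them into the barrel, with a base of ATPases (Psmc genes) and a lid (most Psmd genes) that contains the deubiquitinase Psmd14. SCF ligases attach ubiquitin to their targets. In them the scaffold Cul1 holds the RING subunit Rbx1 at one end and, through the adaptor Skp1 (here Skp1a), an exchangeable F-box protein at the other. The auxin degron depends on both machines, because the plant F-box protein OsTIR1 joins the SKP1, CUL1 and RBX1 of the mouse cell and passes the tagged protein to the proteasome when auxin is bound.

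All cells were of the line V6.5, which grows on irradiated mouse embryonic fibroblasts and was passaged 2 times before use. The untreated group (2 libraries) and the auxin group (2 libraries) were 1 clonal Pol II degron line. It carried a doxycycline-inducible OsTIR1 cassette at Rosa26 and mAID-EGFP on both copies of RPB1, the product of Polr2a. Both groups had received 1 μg/ml doxycycline for 12 h, and the auxin group in addition 500 μM indole-3-acetic acid for 6 h. The wild-type group (2 libraries) had no tag, and whether these cells had received doxycycline is not given in the labels. Tag, OsTIR1, clone, doxycycline and the preparation of the libraries therefore cannot be told apart in the comparison of wild-type with untreated cells.

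Total counts per library lay between 14094022 and 15358714, and the 52 genes together took between 0.683% and 0.762% of them. Levels are given as counts per 1000000 counts of the library (CPM) after TMM scaling over the 6 libraries. Polr2a mRNA was at 461 and 451 CPM in the untreated libraries, 651 and 687 CPM after auxin and 483 and 497 CPM in wild-type cells, which does not check the labels because auxin removes the protein. The 10 embryonic stem cell markers, Pou5f1 and Nanog among them, were detected in every library. They summed to 4432 and 5063 CPM in untreated, 3611 and 3881 CPM in auxin-treated and 7502 and 7418 CPM in wild-type cells, and the part of these differences in the results was not tested. The records of the wild-type libraries mention retinas in the extraction of RNA, but the 12 retina markers summed to 9.07 and 9.71 CPM there, and Crx and Rcvrn had no count. The 12 fibroblast markers summed to between 212 and 280.0 CPM over the 6 libraries, and Lum had at most 1 count. The 13 mitochondrial mRNAs summed to between 3353 and 4306 CPM in the degron libraries and to 15567 and 15914 CPM in the wild-type libraries. In bulk RNA, fewer cells of a type and less RNA per cell cannot be told apart.

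Transcripts of nearly all proteasome subunits were abundant in these cells. To compare genes, counts were divided by the length of all annotated exons of the gene, and the means over the 6 libraries are given as CPM per kilobase. In the alpha ring, Psma6 was highest (171) and Psma2 lowest (36.5). Among the constitutive beta subunits, Psmb6 was at 139, Psmb5 at 141, Psmb4 at 134, Psmb7 at 86.1 and Psmb1, the lowest, at 42.8. Psmb5 carries the chymotrypsin-like site, and the immunoproteasome subunit that can replace it, Psmb8, was at 2.35. The other 2 immunoproteasome subunits were at 1.65 (Psmb9) and 22.8 (Psmb10). In the 19S cap, the highest and lowest levels were 140.5 (Psmc5) and 27.5 (Psmc2) among the ATPases, 108 (Psmd2) and 32.1 (Psmd1) among the other base subunits, and 96.9 (Psmd7) and 25.1 (Psmd11) in the lid. Assembly chaperones ranged from 2.598 (Psmg3) to 54.99 (Psmg1). Psmf1, an inhibitor of the core particle, was at 5.51, and the activator Psme3 was at 63.3. Skp1a was the highest SCF gene (141) and Rbx1 the lowest (19.0025). The order within a subcomplex depended on the length used. With the longest transcript, Psmb6 and not Psmb5 was the highest catalytic subunit, and Psmc1 and not Psmc5 the highest ATPase. With the principal transcript, Psmb5 (141) was the lowest catalytic subunit, below Psmb7 (254) and Psmb6 (326), and Cul1 and not Rbx1 was the lowest SCF gene. The thymus subunit Psmb11 had between 0 and 8 counts per library and was not tested.

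After depletion of Pol II by auxin for 6 h, no proteasome or SCF core gene passed the test for a change. Of 51 genes tested, 0 had an adjusted p-value under 0.05 in the quasi-likelihood test of edgeR (Benjamini-Hochberg), and 0 did with DESeq2. None passed with an absolute log2 fold change over 1 either, against 1.53% of all genes. Over all 16128 genes tested, 4.2% passed, of which 413 were higher and 264 lower. At an unadjusted p under 0.05, 2 of the 51 genes (Psmd7 and Psmg3) and 20.1% of all genes were found. The log2 fold changes of the 51 genes lay between -0.42 and 0.26, with a median of -0.006, and the median over all genes was -0.00038. The median size of the change, without its sign, was 0.049 for the 51 genes and 0.076 for all genes whose mean count was 1000 or more. The 95% interval lay within 0.5 log2 units of 0 for 49 of the 51 genes. TMM scaling takes the typical gene as unchanged, so a loss of mRNA common to every gene could not be seen here.

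The genes with the lowest and highest fold changes after auxin were not all from 1 subcomplex. Psmg3, a chaperone of alpha ring assembly, was at 8.36 and 9.41 CPM in untreated and 5.89 and 7.22 CPM in auxin-treated cells (log2 fold change -0.42, SE 0.17, adjusted p = 0.197). Its libraries did not overlap, but its level was among the lowest of the set. Psmd7, a lid subunit that pairs with the deubiquitinase Psmd14, was at 207 and 222 CPM and 184 and 187 CPM (-0.19, SE 0.068, adjusted p = 0.126). With all 3 groups in 1 fit Psmd7 passed the threshold as the only member (adjusted p = 0.0336), and so it did with a block for the replicate number (adjusted p = 0.0366). Over all genes, the former fit had 567 higher and 668 lower, and the latter 1081 and 849, beside 413 and 264 in the main fit. Rbx1 was at 80.5 and 96.2 CPM and 75.0 and 81.9 CPM (-0.15, SE 0.087, adjusted p = 0.357), and here the libraries of the groups overlapped. On the upper side, Psmb8 was at 9.13 and 11.1 CPM and 12.8 and 11.2 CPM (0.26, SE 0.15, adjusted p = 0.365). Psme1, a subunit of the PA28 activator, was at 69.3 and 59.6 CPM and 68.3 and 74.9 CPM (0.17, SE 0.085, adjusted p = 0.289), and Psmb4 was at 276 and 295 CPM and 311 and 309.8 CPM (0.14, SE 0.069, adjusted p = 0.285). The calls depended on 1 library. Some members passed when an untreated library was left out, but more of all genes passed then too. Without untreated replicate 1, log2 fold changes were 0.28 for Psme1, -0.25 for Psmd7, -0.19 for Psmd12, -0.51 for Psmg3 and -0.28 for Rbx1. Without untreated replicate 2, that of Psmb4 was 0.18.

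By subcomplex, the alpha ring had 6 of 7 fold changes below 0 and the constitutive beta subunits 6 of 7 above 0, with medians of -0.021 and 0.029, and none of these genes passed the test. The 6 ATPases ranged from -0.031 to 0.10, and the 8 lid genes from -0.19 to 0.050. The 3 catalytic subunits had log2 fold changes between 0.026 and 0.030, and each had an SE larger than its fold change. Cul1, the SCF scaffold, was at 114 and 113 CPM in untreated and 121 and 122 CPM in auxin-treated cells (0.12, SE 0.065, adjusted p = 0.315). Skp1a was at 284 and 271 CPM and 263 and 259 CPM (-0.070, SE 0.067, adjusted p = 0.619).

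**Figure D1:**
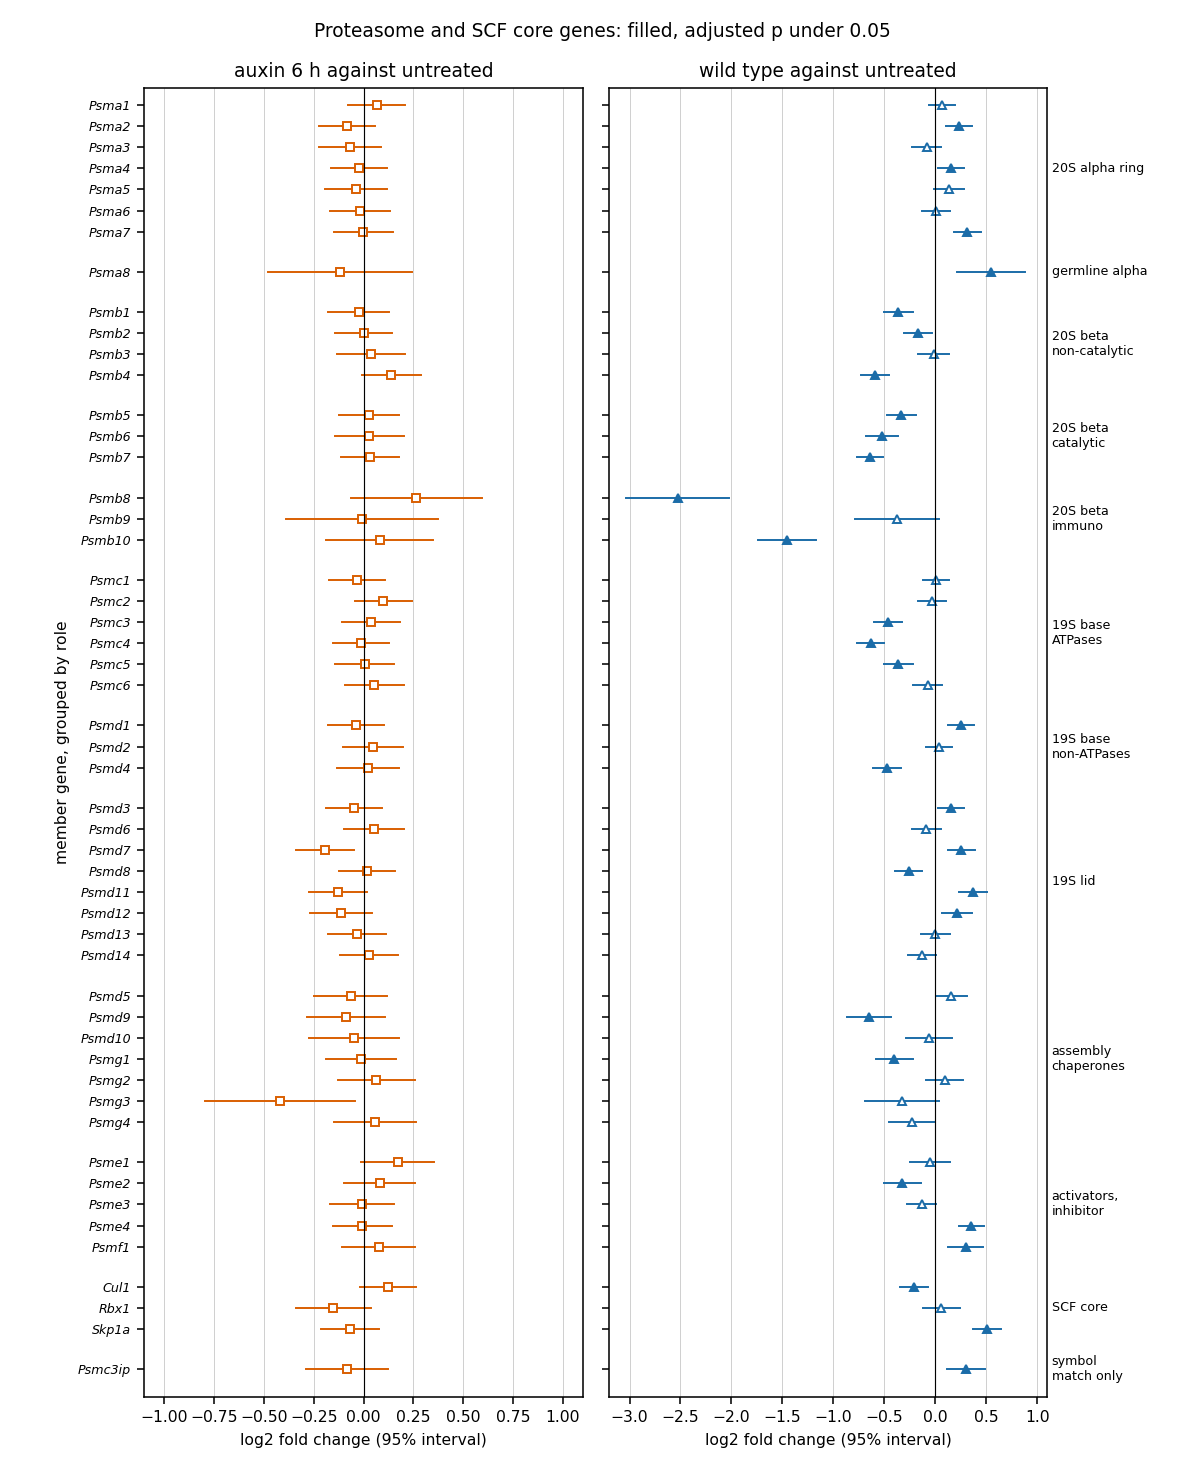
Log2 fold change of each of the 51 tested genes, grouped by role, for auxin against untreated cells (left, squares) and wild-type against untreated cells (right, triangles), with 2 libraries per group; lines are 95% intervals, filled symbols have an adjusted p under 0.05, and the horizontal scales differ. No symbol is filled on the left, and on the right the beta subunits lie at or below 0, from -0.018 (Psmb3) to -2.53 (Psmb8), while 6 of 7 alpha ring genes lie above 0. All 7 fall below 0 if the libraries are scaled to mitochondrial mRNAs, and Psma2 goes to -0.010 with the GC correction.

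Wild-type and untreated degron cells differed in 30 of the 51 genes, against 60.6% of all genes. In the wild-type cells 13 were higher and 17 lower. These shares were close to those over all 15778 genes tested, of which 29.9% were higher and 30.7% lower. They were less close among the 3604 genes whose mean count was 1000 or more. Of those genes 46.4% were higher and 27.9% lower, and of the 38 members among them 26.3% were higher and 34.2% lower. The changes of the 51 genes were mostly small. Only Psmb8 and Psmb10 passed the threshold with an absolute log2 fold change over 1 (2 of 51, against 18.1% of all genes). Their median log2 fold change was -0.062 beside -0.010 for all genes and 0.12 for genes whose mean count was 1000 or more. The libraries of the groups did not overlap, as higher, for 17 of the 51 genes (40% of all genes) and, as lower, for 24 (41% of all genes). Scaled to the mitochondrial mRNAs, which were more abundant in the wild-type libraries, the median of all genes moved to -2.10 and 51 of the 51 genes were lower, so the directions below are relative to the typical gene.

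GC content differed between the genes that were higher and lower. The median GC content of the longest transcript was 52.2% for the 17 lower genes and 46.9% for the 13 higher genes. Over all genes whose mean count was 100 or more, the median log2 fold change was 0.17 for genes under 45% GC and -0.081 for genes of 55% or more. With each library corrected for GC content, 10 genes were higher and 20 lower. With library totals as the only scaling, the counts were also 10 and 20. In all alternatives but the mitochondrial scaling and the fits with 1 library left out, 20 of the 30 calls were kept, 5 higher and 15 lower, and 16 of the 30 were kept when each library was left out in turn as well. With DESeq2 the calls of Cul1, Psma4, Psmb2, Psmc3ip, Psmd3 and Psmf1 were lost, without the filter on low counts those of Psma4, Psma8, Psmb2, Psmd3 and Psmd12, and with the GC correction those of Psma2, Psma4, Psmb2 and Psmd11. The GC correction also gained calls of Psma3, Psmc2, Psmc6 and Psmd14, all as lower. Without wild-type replicate 1, 6 genes were higher and 14 lower, and the calls of Cul1, Psma2, Psma4, Psmb2, Psmc3ip, Psmd1, Psmd3, Psmd7, Psmd8 and Psmd12 were lost. Without wild-type replicate 2, 7 were higher and 14 lower, and those of Cul1, Psma2, Psma4, Psmb2, Psmc3ip, Psmd3, Psmd12, Psme2 and Psmf1 were lost. Without untreated replicate 1 the call of Psmd12 was lost and Psma3, Psmd5, Psmd14, Psme3 and Psmg4 were gained, and without untreated replicate 2 no call was lost and Psmc6 and Rbx1 were gained.

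In the alpha ring, which forms the gate of the barrel, 3 of 7 genes were higher in wild-type cells and 0 lower. Under the mitochondrial scaling 7 of 7 were lower. With the GC correction Psma3 was called lower (-0.28, adjusted p = 0.00458), and of the 3 calls only that of Psma7 was kept. With the length correction Psma1 (0.15) and Psma5 (0.22) were called higher as well. Psma7 was at 151 and 157 CPM in untreated and 196 and 189.7 CPM in wild-type cells (log2 fold change 0.32, SE 0.060, adjusted p = 8.19e-04), and its groups were well apart. Psma2 was at 128 and 131 CPM and 154 and 152 CPM (0.23, SE 0.060, adjusted p = 0.00584), a difference that went to -0.010 with the GC correction. Psma4 was at 172 and 169 CPM and 189.6 and 193 CPM (0.16, adjusted p = 0.0374), just inside the threshold, and it was lost in several alternatives. The other 4 genes did not pass, with fold changes from -0.086 (Psma3) to 0.13 (Psma5). Many of the 100-base stretches of Psma3 (20.6%) and Psma5 (27.5%) also occur in other annotated genes, so their counts are less certain. Psma8, the alpha subunit of germ cells that takes the place of Psma7, was low but measurable, at 10.6 and 15.0 CPM in untreated and 18.4 and 19.2 CPM in wild-type cells (0.55, SE 0.15, adjusted p = 0.00909). The untreated replicates of Psma8 differed more than those of any other gene of the set.

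The beta subunits went the other way, with 6 of the 7 constitutive genes lower in wild-type cells and none higher. None of the 7 was higher under the other scalings either. Psmb7, which carries the trypsin-like site and lies at chr2:38588036-38644087 of mm10, was at 326 and 339.8 CPM in untreated and 217 and 213 CPM in wild-type cells (-0.64, SE 0.058, adjusted p = 3.02e-06), or 1.56-fold lower. Psmb4, a non-catalytic subunit, was at 276 and 295 CPM and 193 and 188 CPM (-0.59, SE 0.061, adjusted p = 7.94e-06). Psmb6, which carries the caspase-like site and lies at chr11:70525367-70527858, was at 269 and 309 CPM and 205 and 198 CPM (-0.53, SE 0.072, adjusted p = 7.06e-05). In each of these genes both wild-type libraries were below both untreated libraries, and the gap was many times the difference between replicates for Psmb7 but not for Psmb6, whose untreated libraries lay further apart. Psmb1 was at 205 and 225 CPM and 169 and 167 CPM (-0.36, adjusted p = 5.06e-04). Psmb5, at chr14:54614119-54618022, was at 131 and 140.2 CPM and 107 and 109 CPM (-0.34, adjusted p = 8.96e-04), and 24.9% of its 100-base stretches are shared with other genes. Psmb2 was at 109 and 109.8 CPM and 97.0 and 98.8 CPM (-0.17, adjusted p = 0.0361), a call that was lost in several alternatives, and Psmb3, at 150.4 and 169 CPM and 160.5 and 157 CPM (-0.018), did not pass.

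The balance of the rings does not depend on how the libraries are scaled. The summed counts of the 7 alpha ring genes were 0.738 and 0.712 times those of the 7 constitutive beta genes in untreated cells, 0.696 and 0.691 times after auxin, and 1.05 and 1.06 times in wild-type cells. The mean ratio in wild-type cells was 1.45 times that in untreated cells, and 1.499 times without the members that share over 10% of their sequence with other genes. The groups did not overlap, but with 2 libraries against 2 the two-sided exact permutation test cannot go below p = 0.333, the value found here. In the alpha ring, GC content of the longest transcript ran from 39.4% (Psma2) to 57.4% (Psma7). In the constitutive beta genes it ran from 40.8% (Psmb7) to 56.6% (Psmb5). The ratio was not corrected for GC content, whose part in the difference was not tested.

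**Figure D2:**
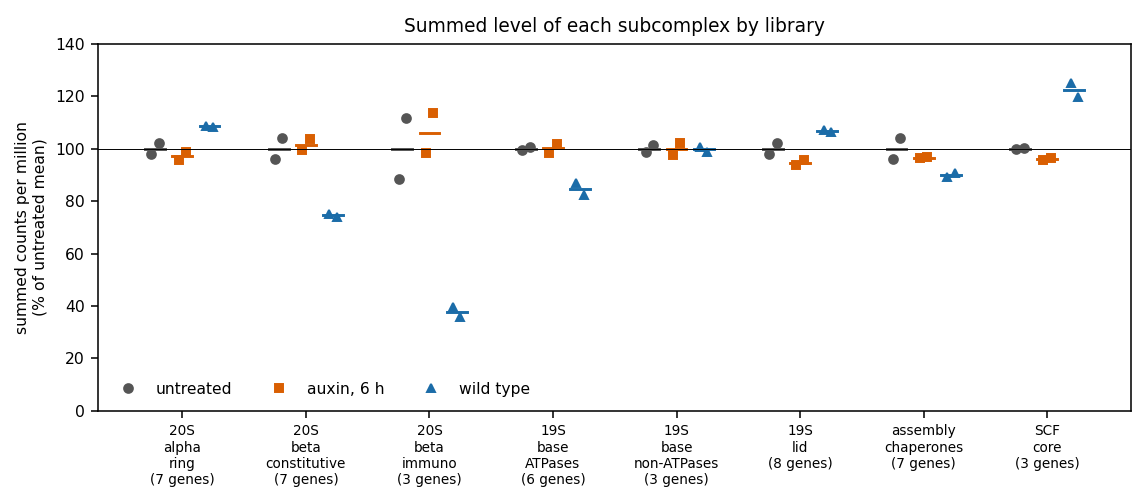
Summed CPM of the genes of each subcomplex in each of the 6 libraries, as a percentage of the mean of the untreated libraries; points are libraries, short lines are group means and the horizontal line is 100%. Wild-type libraries were at 0.746 times the untreated mean for the constitutive beta genes, 0.378 times for the immunoproteasome genes and 1.09 times for the alpha ring, which falls below 1 if scaled to mitochondrial mRNAs.

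Of the 8 beta subunits that were lower in wild-type cells, Psmb1, Psmb2, Psmb4 and Psmb7 are not shown here. Promoters are shown for the other 4 and for the chaperone Psmd9, which was lower too, from the RefSeq promoters (GRCm38.p6). They were searched on both strands for 4 motifs. TGACNNNGC resembles the site of Nfe2l1, the transcription factor that raises proteasome genes when proteasomes fail, GAAA repeated after a gap of 2 bases (the paired GAAA motif) that of interferon regulatory factors and CGGAAG that of ETS factors, and CCAAT is the CCAAT box. Each line holds the 250 bases before the start that RefSeq gives, 5′ to 3′ on the strand of the gene, and capitals mark a match to any of the 4 motifs. The windows of Psmb6, Psmb8 and Psmd9 are on the plus strand and those of Psmb5 and Psmb10 on the minus strand. No GENCODE transcript starts at the end of the windows of Psmb6 and Psmb8. The windows of Psmb8 and Psmd9 lie within these genes as GENCODE has them, and 2 of the 7 GENCODE transcripts of Psmd9 start at the end of its window.
Psmb5, chr14:54617996-54618245: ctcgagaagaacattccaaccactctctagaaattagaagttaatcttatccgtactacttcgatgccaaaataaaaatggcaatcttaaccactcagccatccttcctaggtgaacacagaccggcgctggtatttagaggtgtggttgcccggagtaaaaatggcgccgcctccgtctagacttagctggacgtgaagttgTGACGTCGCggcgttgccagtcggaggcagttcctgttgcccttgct
Psmb6, chr11:70525107-70525356: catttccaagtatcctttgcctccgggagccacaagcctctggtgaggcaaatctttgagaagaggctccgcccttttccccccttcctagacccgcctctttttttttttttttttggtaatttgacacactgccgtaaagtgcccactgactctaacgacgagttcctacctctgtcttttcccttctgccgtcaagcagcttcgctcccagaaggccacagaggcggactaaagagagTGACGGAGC
Psmd9, chr5:123227940-123228189: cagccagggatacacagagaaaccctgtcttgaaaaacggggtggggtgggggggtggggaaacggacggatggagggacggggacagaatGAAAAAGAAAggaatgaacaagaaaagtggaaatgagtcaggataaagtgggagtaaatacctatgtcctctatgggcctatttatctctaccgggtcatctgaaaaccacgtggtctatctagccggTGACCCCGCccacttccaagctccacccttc
Psmb8, chr17:34197945-34198194: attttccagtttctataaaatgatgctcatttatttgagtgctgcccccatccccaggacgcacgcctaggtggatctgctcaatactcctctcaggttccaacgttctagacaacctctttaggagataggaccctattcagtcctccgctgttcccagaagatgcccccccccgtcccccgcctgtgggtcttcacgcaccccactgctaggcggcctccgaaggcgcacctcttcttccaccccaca
Psmb10, chr8:105938393-105938642: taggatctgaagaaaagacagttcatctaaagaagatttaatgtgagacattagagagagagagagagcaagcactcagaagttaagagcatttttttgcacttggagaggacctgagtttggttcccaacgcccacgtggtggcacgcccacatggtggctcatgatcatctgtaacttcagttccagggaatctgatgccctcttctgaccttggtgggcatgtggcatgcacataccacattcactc
In Psmb5 the match lies from 47 to 39 bases before the start, and in Psmb6 it ends directly before the RefSeq start. In Psmd9 the match to TGACNNNGC lies from 31 to 23 bases before the start and a match to the paired GAAA motif is marked as well. The windows of Psmb8 and Psmb10 hold no match. Of the 52 genes, 43 had an entry, with 48 windows. TGACNNNGC occurred in 5 of the 48 windows (10.4%), which are those of Psmb5, Psmb6, Psmc6, Psmd9 and Psmd12, and in 10.2% of all 32851 windows. Of these 5 genes, Psmd12 was higher in wild-type cells and Psmc6 did not pass. Psmd9 was the only lower gene outside the beta subunits found with this match. The windows printed above therefore do not stand for the lower genes as a whole. The paired GAAA motif occurred in 4 windows (8.33%), those of Cul1, Psmb3, Psmd4 and Psmd9, and in 2.98% of all windows. CGGAAG occurred in 21 windows of 20 genes (43.8%), in 22.8% of the windows of genes tested for auxin and in 13.6% of all windows. CCAAT occurred in 16 windows (33.3%) and in 33.8% of all windows.

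The immunoproteasome subunits Psmb8, Psmb9 and Psmb10 replace Psmb5, Psmb6 and Psmb7 in cells exposed to interferon. Of the 3, Psmb8 and Psmb10 held the largest differences of the set, and Psmb9 did not. Psmb8, at chr17:34197721-34201454 within the major histocompatibility locus, was at 9.13 and 11.1 CPM in untreated and 1.55 and 1.95 CPM in wild-type cells (-2.53, SE 0.23, adjusted p = 2.96e-06), or 5.77-fold lower. Psmb10, at chr8:105935735-105938444, was at 42.0 and 54.7 CPM and 19.1 and 16.3 CPM (-1.46, SE 0.13, adjusted p = 2.36e-06), or 2.74-fold lower. In both genes the lowest untreated library was more than 2 times the highest wild-type library. Psmb9, which lies beside Psmb8 at chr17:34181987-34187764, was at 6.34 and 6.80 CPM and 5.07 and 5.09 CPM (-0.38, SE 0.19, adjusted p = 0.101), and it did not pass. Psmb9 overlaps exons of Tap1 and Psmb8 exons of Gm20496 on the opposite strand. Whether counting used strand is not given in the sources used here, so reads of these pairs may be mixed. Per kilobase of exons, Psmb8 was at 1.85% and 2.097% of Psmb5 in untreated cells, 2.59% and 2.1005% after auxin and 0.385% and 0.476% in wild-type cells. Psmb10 was at 25.8% and 32.3% of Psmb7, 26.8% and 33.6% after auxin, and 17.7% and 15.4% in wild-type cells. Psmb9 stayed between 1.09% and 1.31% of Psmb6 in the 6 libraries. These shares moved by over 1.5 times with the length used. Per kilobase of the principal transcript, Psmb8 was at 3.85% and 4.36% of Psmb5 in untreated and 0.8% and 0.989% in wild-type cells, and Psmb10 at 11.4% and 14.3% and 7.80% and 6.78% of Psmb7. Per kilobase of the longest transcript, Psmb9 was at 0.791% and 0.738% of Psmb6 in untreated cells. Transcripts of the constitutive subunits were thus the more abundant of each pair in every library, also with the other lengths.

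**Figure D3:**
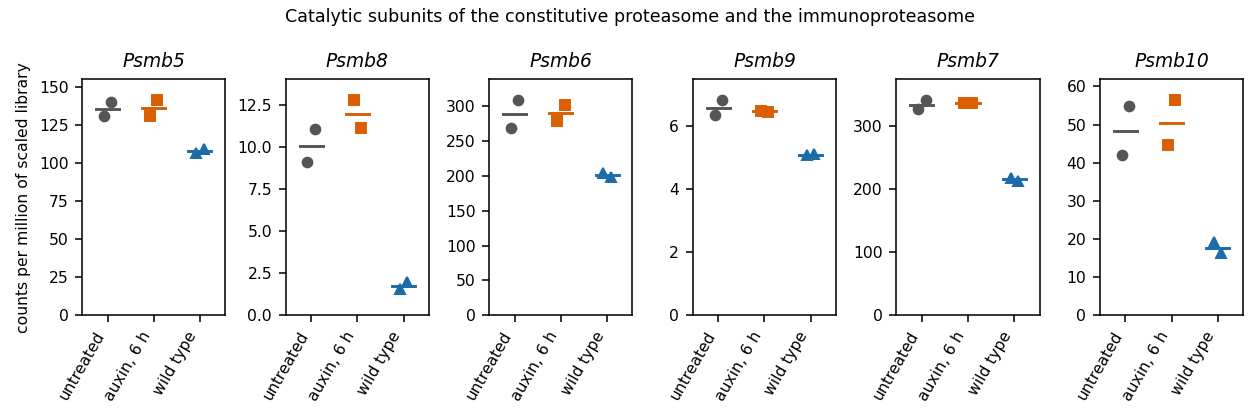
CPM of the catalytic subunits of the constitutive proteasome (Psmb5, Psmb6, Psmb7), each beside the immunoproteasome subunit that replaces it (Psmb8, Psmb9, Psmb10), in 2 libraries per group; points are libraries, lines are means, and each panel has its own vertical axis from 0. Wild-type libraries are the lowest in all 6 panels, most clearly for Psmb8 (1.55 and 1.95 CPM) and Psmb10 (19.1 and 16.3 CPM).

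In the 19S base, 3 of 6 ATPases were lower in wild-type cells and the other 3 did not pass. Psmc4 was at 173 and 174 CPM in untreated and 115 and 110.3 CPM in wild-type cells (-0.63, SE 0.061, adjusted p = 4.52e-06), Psmc3 at 217 and 229 CPM and 166 and 159 CPM (-0.46, adjusted p = 5.86e-05), and Psmc5 at 205 and 218 CPM and 172 and 159 CPM (-0.36, adjusted p = 5.67e-04). Psmc1, Psmc2 and Psmc6 had fold changes of 0.0078, -0.037 and -0.076, and the libraries of their groups overlapped. With the GC correction, however, Psmc2 (-0.22, adjusted p = 0.0110) and Psmc6 (-0.39, adjusted p = 1.55e-04) were called lower. The ubiquitin receptor Psmd4 was at 206 and 219 CPM and 153 and 155 CPM (-0.47, SE 0.061, adjusted p = 4.53e-05), whereas the scaffold Psmd1 was at 218 and 226 CPM and 268 and 262 CPM (0.25, SE 0.058, adjusted p = 0.00318). Psmd2, the most abundant proteasome transcript in CPM, was at 429 and 430.3 CPM and 450.4 and 437 CPM (0.039, adjusted p = 0.58).

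In the lid, 4 of 8 genes were higher and 1 lower in wild-type cells, with the 4 lower as well under the mitochondrial scaling. Psmd11 was at 145 and 155 CPM and 198 and 192 CPM (0.37, SE 0.062, adjusted p = 3.64e-04), and it was not called with the GC correction. Psmd7 was at 207 and 222 CPM and 259.7 and 255 CPM (0.25, adjusted p = 0.00373), Psmd12 at 133 and 147 CPM and 159 and 167 CPM (0.21, adjusted p = 0.0194), and Psmd3 at 223 and 232 CPM and 258 and 251 CPM (0.16, adjusted p = 0.0357), a call that was lost in several alternatives. Psmd8 was the lid gene that was lower, at 213 and 213 CPM and 175 and 182 CPM (-0.26, adjusted p = 0.00239). The deubiquitinase Psmd14 (-0.13), Psmd6 (-0.087) and Psmd13 (-0.00059) did not pass, but Psmd14 was called lower with the GC correction (-0.26, adjusted p = 0.00307). 12.9% of the 100-base stretches of Psmd13 are shared with Sirt3.

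Among the assembly chaperones, 2 of 7 were lower and 0 higher. Psmd9, which helps to assemble the base, was at 35.2 and 39.4 CPM in untreated and 22.2 and 25.5 CPM in wild-type cells (-0.65, SE 0.10, adjusted p = 1.45e-04). Psmg1, which forms a chaperone pair with Psmg2 for the alpha ring, was at 74.6 and 87.4 CPM and 60.8 and 62.3 CPM (-0.40, SE 0.083, adjusted p = 0.00134), whereas Psmg2 was at 35.5 and 39.6 CPM and 41.4 and 39.1 CPM (0.093, adjusted p = 0.357). The other pair, Psmg3 (-0.33) and Psmg4 (-0.23), did not pass, nor did Psmd5 (0.16) and Psmd10 (-0.062). Of the activators, the large single-chain activator Psme4 was at 272 and 274 CPM and 351 and 352 CPM (0.35, SE 0.056, adjusted p = 2.30e-04). Psme2, a partner of Psme1 in the interferon-induced PA28 activator, was at 47.2 and 43.9 CPM and 38.4 and 34.7 CPM (-0.33, SE 0.083, adjusted p = 0.00519), but 44.5% of its 100-base stretches are shared with Psme2b. Psme1 (-0.054) and Psme3 (-0.14), the nuclear activator, did not pass. The inhibitor Psmf1 was at 32.9 and 32.1 CPM and 39.4 and 41.0 CPM (0.30, SE 0.078, adjusted p = 0.00597). Psmc3ip, which is no proteasome subunit, was at 26.5 and 28.7 CPM and 34.2 and 34.2 CPM (0.30, adjusted p = 0.0086), and 24.0% of its 100-base stretches are shared with Mlx on the opposite strand.

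The 3 SCF core genes did not move together between wild-type and untreated cells. Skp1a, at chr11:52231995-52246858, was at 284 and 271 CPM in untreated and 409 and 383 CPM in wild-type cells (0.50, SE 0.062, adjusted p = 3.12e-05), or 1.42-fold higher, and the wild-type libraries were well above the others except under the mitochondrial scaling. Cul1 was at 114 and 113 CPM and 97.3 and 99.3 CPM (-0.21, SE 0.063, adjusted p = 0.0125), and its call was lost without either wild-type library. Rbx1 was at 80.5 and 96.2 CPM and 92.6 and 92.6 CPM (0.060, SE 0.083, adjusted p = 0.553), with overlapping libraries.

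Genes that work with the proteasome and SCF ligases were counted in lists. After auxin, 1 of 25 proteasome partners was lower (Nfe2l2, a relative of Nfe2l1 that drives antioxidant genes, log2 fold change -0.35, adjusted p = 0.0133) and 0 higher. Of 38 cullin and neddylation partners, 1 was lower (Dcun1d3, which promotes neddylation of cullins, -0.37, adjusted p = 0.041) and 0 higher. The 6 genes of ubiquitin supply had 0 calls. Of 64 F-box genes tested, the substrate receptors of SCF ligases, 1 was higher (Fbxw4, 0.38, adjusted p = 0.0251) and 2 lower. Fbxo5, an inhibitor of the anaphase-promoting complex, was at 59.6 and 60.5 CPM in untreated and 44.0 and 42.9 CPM in auxin-treated cells (-0.45, adjusted p = 0.00683), and Fbxo42 was lower by a smaller margin (-0.27, adjusted p = 0.049). Of 14 genes of interferon response and antigen presentation, 2 were higher, namely the transcription factor Irf1 (0.56, adjusted p = 0.00904) and the peptidase Erap1 (0.54, adjusted p = 0.0357). Each of these 7 calls was lost without the filter on low counts, under the mitochondrial scaling and without auxin replicate 2 (adjusted p between 0.0889 and 0.346 without that replicate). Those of Dcun1d3, Erap1, Fbxo42 and Fbxw4 were lost with DESeq2 and, with that of Nfe2l2, also without auxin replicate 1. Those of Dcun1d3 and Fbxo42 were lost as well with library totals and with at least 10 counts required in every library. All these shares are to be read beside the 2.56% of all genes that were higher and 1.64% that were lower after auxin.

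In wild-type against untreated cells, 7 of the 25 proteasome partners were higher and 11 lower. The counts of the lists are to be read beside the 29.9% of all genes that were higher and 30.7% that were lower. Nfe2l1 was at 605 and 637 CPM in untreated and 329 and 322 CPM in wild-type cells (-0.94, SE 0.060, adjusted p = 2.01e-07). Ufd1l, a cofactor of the segregase Vcp, was lower as well (-0.70, adjusted p = 6.89e-06). Pomp, the maturation factor of the core particle, was higher, at 74.3 and 82.4 CPM and 110.2 and 115 CPM (0.51, adjusted p = 8.48e-05), as were Txnl1 (0.61) and Ubqln4 (0.34). Of the 38 cullin and neddylation partners, 8 were higher and 10 lower. Cand1, which exchanges the F-box proteins on Cul1, was at 185 and 183 CPM and 299 and 300.2 CPM (0.70, adjusted p = 1.31e-06), and the NEDD8-conjugating enzyme Ube2m was at 129 and 119 CPM and 68.7 and 73.5 CPM (-0.81, adjusted p = 2.17e-06). Among the subunits of the COP9 signalosome, which removes NEDD8 from cullins, Cops2 was higher (0.55) and Cops3 (-0.61) and Cops7a (-0.43) were lower, and Dcun1d1 was higher (0.58). Among the genes of ubiquitin supply, the activating enzymes Uba1 (0.19) and Uba6 (0.64) were higher and the ubiquitin genes Rps27a (-0.73) and Ubb (-0.38) lower. Of 63 F-box genes tested, 19 were higher and 20 lower, with Fbxo5 (1.03), Ccnf (0.87) and Skp2 (0.78) among the former and Fbxw4 (-1.23), Fbxo15 (-0.74) and Fbxl17 (-1.14) among the latter. These directions, too, are relative to the typical gene, and every gene named here as higher was lower under the mitochondrial scaling. The call of Uba1 was lost without either wild-type library.

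The genes of interferon response and antigen presentation had 10 of 14 lower and 2 higher in wild-type cells, beside 30.7% and 29.9% of all genes, and a median log2 fold change of -0.84. B2m, the light chain of class I molecules, was at 62.1 and 61.1 CPM in untreated and 19.6 and 17.1 CPM in wild-type cells (-1.76, SE 0.087, adjusted p = 3.13e-08). The class I gene H2-D1 (-1.17, adjusted p = 7.86e-07) and Tap2 (-2.14, adjusted p = 3.50e-06), which carries peptides into the endoplasmic reticulum, were lower as well. The 2 that were higher were Stat2 (0.32, adjusted p = 0.00212) and the class I gene H2-K1 (0.30, adjusted p = 0.00577), again except under the mitochondrial scaling, and H2-K1 was not called without wild-type replicate 1. Psmb8 and Psmb10 thus fell on the same side as most of this list, whereas Psmb9 and Psme1 did not pass. The 12 fibroblast markers summed to 229.7 and 231 CPM in untreated and to 212 and 213 CPM in wild-type cells, and their part in this difference was not tested.

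**Figure D4:**
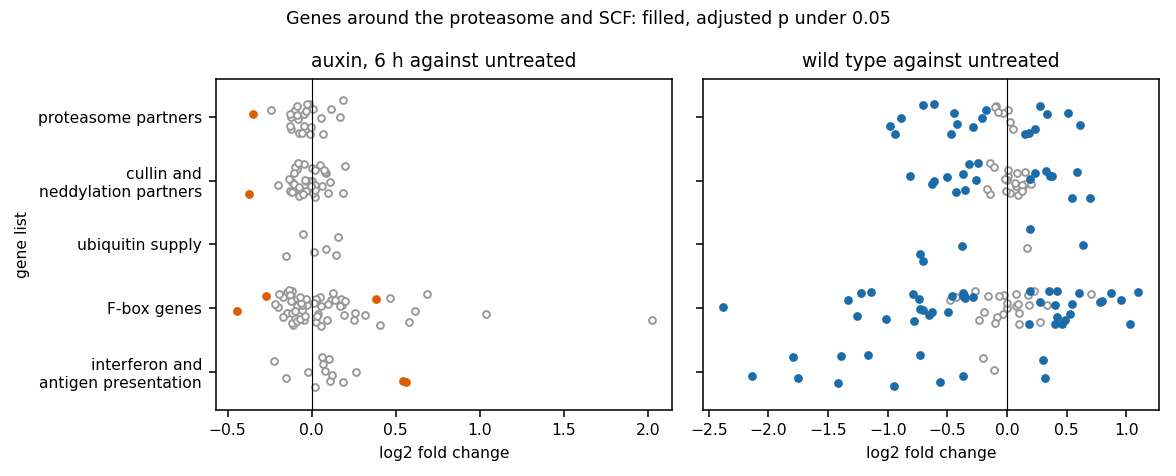
Log2 fold change of each tested gene of the 5 lists around the proteasome and SCF ligases, for auxin (left) and wild-type cells (right) against untreated cells; each point is 1 gene, spread vertically only for legibility, filled points have an adjusted p under 0.05, and the horizontal scales differ. Few points are filled after auxin, and in wild-type cells 10 of the 14 interferon and antigen presentation genes are filled below 0.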

How the data were processed

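PolyA RNA-Seq of 6 libraries in 3 groups of 2 was used. Per the submitters' processing notes and the methods, reads were paired and HISAT2 2.1.0 placed them on mm10. Salmon and HTSeq gave counts for GENCODE genes, and DESeq2 the study's own comparison. The authors deposited whole-number counts, not normalized, of the degron libraries in one table and of the wild-type libraries in another. Neither the GENCODE release nor the use of strand is given in the sources used here. Fold changes, group means and p-values of the authors' own comparison stand in the tables and were not used, nor were 2 columns of per-sample counts that matched no sample. The tables were joined by gene identifier, and 27 genes, no member among them, had a symbol that differed between the tables.

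Tests were made with edgeR 4.0.16 under R 4.3.3 (glmQLFit and glmQLFTest, two-sided, TMM scaling, filterByExpr with a minimum count of 10), with Benjamini-Hochberg adjustment over all genes tested. Each comparison was fitted on its own 4 libraries, and both use the same untreated libraries, so they were not set against each other. The threshold for a call was an adjusted p under 0.05. The study's methods call replicates of its sequencing experiments biological, but neither they nor the labels say that these libraries came from separate cultures. The p-values therefore set each difference against the spread between these libraries only. Coordinates, exon lengths, GC content and shared sequence came from GENCODE vM21 on mm10, and GC content was known for 98.9% of the genes tested in the wild-type comparison. A stretch counts as shared when 100 bases of a transcript occur in a transcript of another gene. Intervals are 95% confidence intervals of the log2 fold change, with an SE that rests on the spread between libraries. Genes with few counts, such as Psmb8, are known less well.

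Named genes were those called in either comparison, members fixed by role, the 3 highest and 3 lowest fold changes and the highest and lowest level of each subcomplex, and, of other lists, up to 3 called genes per direction with the smallest p. Further genes of the ubiquitin supply list were named after their values were seen, and some genes that the rule names are not reported here. The members, lists and tests were chosen with earlier results of these data known. Alternatives were DESeq2 1.42.0, its size factors in edgeR, library totals, mitochondrial mRNA scaling, other filters, robust dispersion, a block for the replicate number, one fit over all groups and each library left out. Corrections for GC content and for length, the length of the principal transcript and a ratio without members that share sequence were added after the data were seen.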

Additional observations from a re-analysis of the deposited data

How the results depend on the processing

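After auxin, the count of 0 members called held under DESeq2, its size factors, library totals, the mitochondrial scaling, both other filters, robust dispersion and the GC and length corrections. With all 3 groups in one fit 1 member was lower (Psmd7). With a library left out, 0 to 1 members were higher and 0 to 4 lower, and the median log2 fold change lay between -0.038 and 0.040. The mitochondrial scaling moved that median to -0.17, beside -0.17 over all genes. In the wild-type comparison, the alternatives other than the mitochondrial scaling gave 9 to 15 members higher and 15 to 20 lower, and leaving out a library gave 6 to 14 and 14 to 21, with medians from -0.074 to -0.028. In those fits the group left with 1 library was assumed to vary like the other. The median was -0.12 with library totals, -0.13 with the GC correction and -0.0100 with the length correction. The mitochondrial scaling gave 0 higher, 51 lower and a median of -2.16, and the log2 fold changes that turned negative under it were Psma1 -2.03, Psma2 -1.86, Psma4 -1.94, Psma5 -1.96, Psma6 -2.08, Psma7 -1.78, Psma8 -1.53, Psmc1 -2.09, Psmc3ip -1.79, Psmd1 -1.85, Psmd11 -1.73, Psmd12 -1.88, Psmd2 -2.06, Psmd3 -1.94, Psmd5 -1.94, Psmd7 -1.84, Psme4 -1.74, Psmf1 -1.80, Psmg2 -2.00, Rbx1 -2.03, Skp1a -1.60, Cand1 -1.40, Ccnf -1.22, Cops2 -1.56, Dcun1d1 -1.52, Fbxo5 -1.06, H2-K1 -1.79, Pomp -1.58, Skp2 -1.31, Stat2 -1.77, Txnl1 -1.48, Uba1 -1.91, Uba6 -1.47 and Ubqln4 -1.75. Psma2 went to -0.010 with the GC correction. Over all genes, the auxin comparison had 43 higher and 12 lower without a filter and 130 and 110 with DESeq2. Deviations of same-numbered libraries correlated at r = 0.0684 over genes in the auxin comparison and -0.0279 in the wild-type comparison. Genes with few counts entered these correlations too, so they cannot exclude that replicate numbers pair the libraries. The fit with the replicate block called 1 member lower after auxin (Psmd7), and 11 higher and 16 lower in wild-type cells. Over all genes after auxin it called 1081 higher and 849 lower, beside 413 and 264 without the block.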
